A study of Mus musculus with 2 samples.

Results

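In HT22 cells, 269 of the 3706 KMT2D peaks on chromosomes 1 to 19, X and Y (7.26%, Wilson 95% interval 6.47 to 8.14) lay in gene deserts. A peak was placed there when its summit fell outside every protein-coding gene and more than 100 kb from the nearest end of one, by RefSeq gene positions on GRCm38, the build also called mm10. The rule uses position only, not peak height. HT22 is an immortalised mouse hippocampal cell line, and both libraries came from wild-type cells of what the labels call a wild-type clone, grown to 70% confluency. Chromatin precipitated with an anti-KMT2D antibody (Millipore ABE1867) gave 1 library and input chromatin the other, and the authors made 1 peak list from the pair. The series also describes HT22 cells whose KMT2D lacks the SET methyltransferase domain, which are not analysed here. Neither library was repeated, so no test between groups was possible. Intervals cover counting error only, and those of a fold cover that of the ChIP fragments with the background held fixed. Classes of peaks are set side by side as descriptions.

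KMT2D (also called MLL4) is the catalytic subunit of a COMPASS-like complex that adds methyl groups to lysine 4 of histone H3, mostly the single methyl group found at enhancers. Gene deserts are long stretches with no protein-coding gene, and those beside developmental regulators such as Sox9 and Myc are known to hold enhancers that act over long distances on the gene at the border. For that reason the protein-coding genes on both sides are given for the desert peaks described, without saying which of them, if any, a peak acts on.

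A few desert peaks sat at the annotated start of a long non-coding RNA (lncRNA). A summit fell in 5 promoter windows of 300 bases (250 before to 50 after an annotated start), all of lncRNA genes. They are shown because they give the letters under the peak, with the bases inside the peak in capitals, 5′ to 3′ on the strand of the lncRNA, from RefSeq on GRCm38.p6. Gm35551 is on the minus strand at chr17:84044537-84044836, between Haao and Zfp36l2. This start lies inside the span of its gene, which reaches further upstream. Gm8883 is on the plus strand at chr1:71887862-71888161, between Fn1 and Mreg. Morrbid, an lncRNA known to act on the neighbouring pro-apoptotic gene Bcl2l11, is on the minus strand at chr2:128429302-128429601, between Bcl2l11 and Spdye4c. Gm13816, between Chst1 and Syt13, has 2 annotated starts with a summit, on the plus strand at chr2:92751232-92751531 and chr2:92741980-92742279.
Gm35551: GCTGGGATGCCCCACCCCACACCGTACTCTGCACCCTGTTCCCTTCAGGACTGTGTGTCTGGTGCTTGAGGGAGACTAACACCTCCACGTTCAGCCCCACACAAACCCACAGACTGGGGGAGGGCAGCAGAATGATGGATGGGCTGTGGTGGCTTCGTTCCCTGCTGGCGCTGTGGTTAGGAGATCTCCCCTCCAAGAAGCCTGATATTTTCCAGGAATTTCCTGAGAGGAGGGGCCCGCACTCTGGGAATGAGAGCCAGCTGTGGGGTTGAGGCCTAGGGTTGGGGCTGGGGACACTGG
Gm8883: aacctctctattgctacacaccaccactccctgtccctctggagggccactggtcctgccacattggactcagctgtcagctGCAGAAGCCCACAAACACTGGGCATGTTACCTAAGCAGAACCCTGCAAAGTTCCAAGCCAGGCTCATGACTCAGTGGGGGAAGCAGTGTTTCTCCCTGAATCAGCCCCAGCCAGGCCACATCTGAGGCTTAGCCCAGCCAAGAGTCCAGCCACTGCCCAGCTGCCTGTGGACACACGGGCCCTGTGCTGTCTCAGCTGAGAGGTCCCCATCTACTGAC
Morrbid: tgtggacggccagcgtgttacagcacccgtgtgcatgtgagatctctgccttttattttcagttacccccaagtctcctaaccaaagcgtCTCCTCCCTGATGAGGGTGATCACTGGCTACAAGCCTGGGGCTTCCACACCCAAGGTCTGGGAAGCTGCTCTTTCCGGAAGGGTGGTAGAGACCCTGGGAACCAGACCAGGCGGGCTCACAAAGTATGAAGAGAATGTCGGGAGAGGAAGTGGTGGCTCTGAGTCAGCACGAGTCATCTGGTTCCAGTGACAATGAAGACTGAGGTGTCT
Gm13816, downstream start: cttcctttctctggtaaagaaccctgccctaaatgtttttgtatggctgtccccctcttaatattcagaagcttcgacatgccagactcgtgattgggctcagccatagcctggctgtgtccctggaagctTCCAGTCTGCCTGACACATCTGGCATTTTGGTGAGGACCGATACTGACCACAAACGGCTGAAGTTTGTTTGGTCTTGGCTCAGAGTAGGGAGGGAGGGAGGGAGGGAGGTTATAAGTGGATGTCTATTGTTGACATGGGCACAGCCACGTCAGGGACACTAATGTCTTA
Gm13816, upstream start: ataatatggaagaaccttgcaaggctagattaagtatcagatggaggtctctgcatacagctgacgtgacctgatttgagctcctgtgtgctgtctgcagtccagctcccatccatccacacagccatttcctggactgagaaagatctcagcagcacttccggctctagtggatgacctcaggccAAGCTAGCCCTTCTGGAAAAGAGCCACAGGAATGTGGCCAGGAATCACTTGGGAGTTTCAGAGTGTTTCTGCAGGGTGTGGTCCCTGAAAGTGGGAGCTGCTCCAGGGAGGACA

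The peak at Gm35551 covered all 300 bases of its window and had a fold of 7.58 (95% Poisson interval 6.05 to 9.39), with its summit 92 bp before the start. The fold is the value the authors' peak caller gave each summit, ChIP fragments over a background set from the input, with 1 added to each. At Gm8883 the fold was 6.09 (4.29 to 8.40) with the summit 56 bp before the start, and at Morrbid 5.05 (3.31 to 7.42) with the summit 28 bp after it. The upstream Gm13816 start, listed last, had a fold of 3.38 (2.40 to 4.65), and the other start of that gene 4.46 (2.95 to 6.50). The letters of 4 transcription factor patterns were searched on both strands, and none of the patterns contains another. The AP-1 letters TGANTCA were found 2 times in the Gm8883 window and 1 time in the Morrbid window, all under the peak, and in 7.81% of all 32851 promoter windows of the table. The RUNX letters TGTGGT were found 2 times in the Gm35551 window and 1 time in each Gm13816 window, against 16.8% of all windows with at least 1 match. The TEAD letters GGAATG were found 1 time each in the Gm35551 window and the upstream Gm13816 window, against 14.7%. The CRE letters TGACGTCA were found in none of the 5 windows and in 1.79% of all windows. CpG dinucleotides numbered 5 at Gm35551, 1 at Gm8883, 8 at Morrbid, and 5 and 2 at the 2 Gm13816 starts, where the median over all windows was 7 (interquartile range 3 to 20).

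Desert peaks also flanked microRNA genes, and 4 mature sequences are shown because these genes lie nearer to the peaks than any protein-coding gene. MicroRNAs are short RNAs that bind target messages through their seed, here bases 2 to 8, in capitals. The hairpins of miR-29a (chr6:31062660-31062747, minus strand) and miR-29b-1 (chr6:31063023-31063093, minus strand), whose 3p arms share 1 seed, lay 602 and 965 bp from a peak at chr6:31061865-31062205 with a fold of 5.32. The miR-100 hairpin (chr9:41531425-41531504, plus strand) lay 16084 bp from a peak at chr9:41515184-41515550 in the lncRNA gene Mir100hg, with a fold of 10.3. The miR-125b-1 hairpin (chr9:41581926-41582002, plus strand) lay 7318 bp from another peak in Mir100hg, at chr9:41589218-41589445, with a fold of 4.69. Sequences and positions are from RefSeq on GRCm38.p6.
mmu-miR-29a-3p: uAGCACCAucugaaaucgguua
mmu-miR-29b-3p: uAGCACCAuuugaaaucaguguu
mmu-miR-100-5p: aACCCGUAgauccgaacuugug
mmu-miR-125b-5p: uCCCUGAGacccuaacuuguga

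Most desert peaks had a fold and a number of fragments close to those of other intergenic peaks. The fragments behind each summit were solved from its deposited fold and p-value. Of the 269 peaks, 233 had a background under 20 fragments at the summit, and are called low-background peaks here. Their folds ran from 2.38 to 10.9 with a median of 5.21 (interquartile range 4.04 to 6.27; 95% interval of the median 4.87 to 5.34), with a median of 29 ChIP fragments over a background of 4.92. Intergenic low-background peaks 20 to 100 kb from a gene end (561) had a median fold of 4.76, with 31 ChIP fragments over 5.62. Those 2 to 20 kb away (622) had a median fold of 4.88, with 32 ChIP fragments over 5.62. Low-background peaks in a gene or within 2 kb of one had a median fold of 4.23 over a background of 6.23. The medians of ChIP fragments thus lay within 3 fragments of each other across the intergenic classes, while the median background was lowest in the deserts. The smallest background, 2.19 fragments, was the same in every class and recurred at many peaks. Folds at those peaks are thus taken over a shared minimum. Width differed little, with a median of 285 bp in the deserts, 297 bp at 20 to 100 kb and 305.5 bp at 2 to 20 kb.

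A fold of at least 6 was reached by 70 of the 269 desert peaks, 26.0%, where the share over all chromosomal peaks was 22%. All 70 were low-background peaks, which made 30.0% of the 233 (Wilson 95% interval 24.5 to 36.2) against 22.2% of all low-background peaks. The same share was 25.7% at 20 to 100 kb and 31.0% at 2 to 20 kb, so the desert value lay between those of the intergenic classes. A fold of at least 8 was reached by 20 desert peaks, 7.43% of 269, against 7.58% of all peaks, a share near the background. Among low-background peaks it was 8.58% in the deserts (5.63 to 12.9), where all low-background peaks together had 7.69%. It was 7.84% at 20 to 100 kb and 13.99% at 2 to 20 kb. At the limit of 100 kb, the 17 peaks up to 5 kb beyond it had a median fold of 5.32 (range 1.33 to 9.78). Of these, 4 had a background of 20 fragments or more (3 beside Esp38 and 1 beside Trib1), and the other 13 had a median of 5.53 (2.75 to 9.78). The 9 peaks up to 5 kb short of the limit, all low-background, had a median of 4.85 (3.43 to 6.46).

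**Figure D1:**
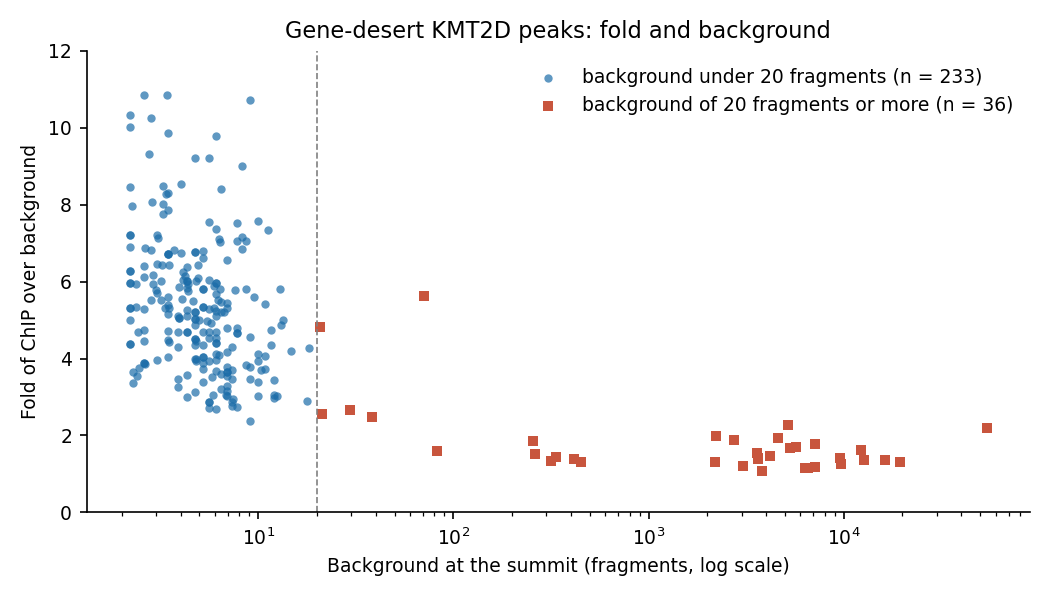
Fold of ChIP over background (linear axis) against the background at the summit in fragments (log axis) for the 269 desert peaks, 1 point per peak, with blue circles under and red squares at or above 20 fragments (dashed line). The 233 blue peaks spread between folds of 2.38 and 10.9, and the 36 red peaks lie between 1.07 and 5.64.

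The remaining 36 peaks, 13.4% of the desert peaks (Wilson 95% interval 9.83 to 17.97), had a background of 20 fragments or more. Among the other chromosomal peaks that share was 1.92% (66 of 3437; 1.51 to 2.44). Their median fold was 1.49 and none had a fold of 6 or more. They gathered at 10 places, with 31 of the 36 at 5 of them. The largest group was 20 peaks between positions 3000321 and 3038175 on chromosome 9, ahead of the first protein-coding gene there, Alkbh8, with folds from 1.07 to 2.28. A single peak at chr2:98666411-98667457, between Lrrc4c and Iftap, had a fold of 2.19 on about 118678 ChIP fragments over about 54170. On chromosome 14, 3 peaks between the predicted genes Gm41099 and Gm2244 had folds from 1.25 to 1.42. On chromosome 17, 4 peaks between the pheromone genes Esp15 and Esp38 had folds from 1.31 to 1.44 over backgrounds of 317 to 449. One of these summits lay in the annotated ribosomal RNA pseudogene Rn18s-rs5, 2 others 645 and 2184 bp from it, and 1 in the lncRNA gene AY036118. The last of the 5 groups held 3 peaks between Tcp10c and Tcte2, genes of the t-complex on chromosome 17, with folds from 1.52 to 1.86.

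Outside those groups the folds of the other 5 were higher. At chr14:124801597-124802170, beyond Fgf14, the last protein-coding gene of chromosome 14, the fold was 5.64 (5.10 to 6.22) on 402 fragments over 70.5. One beside Trib1 had a fold of 4.83, and those beside 9530057J20Rik, Myc and Asmt had 2.66, 2.57 and 2.48. For 19 of the 36 the fragments could be solved only approximately, and what high input does to their folds was not tested. The values from here on are those of low-background peaks unless stated.

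Peaks became sparser with distance from genes. Sequence more than 100 kb from a protein-coding gene made up 28.5% of the bases between the first and last gene of each chromosome, but held 6.45% of the low-background peaks there, or 0.307 per Mb (exact Poisson 95% interval 0.268 to 0.349; 232 peaks). On autosomes alone it was 0.353 per Mb. The density was 1.86 per Mb at 2 to 20 kb and 1.19 at 20 to 100 kb. Within the deserts it was 0.657 at 100 to 150 kb (0.529 to 0.807), 0.427 at 150 to 200 kb, 0.278 at 200 to 300 kb and 0.283 at 300 to 500 kb. Beyond 500 kb it was 0.0641 (0.0351 to 0.108). The intervals of the 3 middle steps overlap, so no order between 150 and 500 kb is read from them. The interval at 150 to 200 kb, 0.309 to 0.575, also overlaps that at 100 to 150 kb, so the step between them is not resolved either. The fold did not fall along with the density: the 14 peaks beyond 500 kb had a median fold of 6.18 (interquartile range 4.92 to 6.85), and the 91 at 100 to 150 kb 5.21 (4.26 to 6.27). Most of those 14 had a background below the desert median of 4.92 fragments, and some had the smallest background of 2.19. ChIP fragments were not compared between the steps of distance, so a higher fold there need not mean more ChIP fragments.

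**Figure D2:**
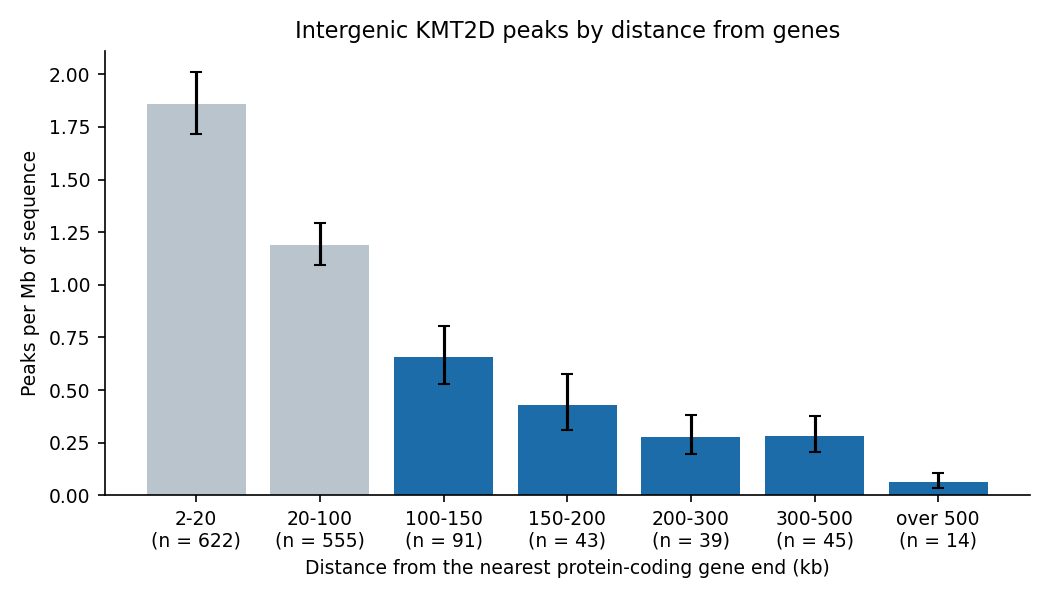
Low-background intergenic peaks per Mb of sequence (linear axis from 0) in steps of distance from the nearest protein-coding gene end in kb, with exact Poisson 95% intervals as error bars and the number of peaks under each bar. Blue bars are desert peaks, which fall from 0.657 per Mb at 100 to 150 kb to 0.0641 beyond 500 kb, and grey bars are the nearer classes.

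The farthest low-background peak lay 1.13 Mb from Cited2 and 1.82 Mb from Nmbr, at chr10:16589452-16589752, with a fold of 6.46 (4.27 to 9.41). Cited2 encodes a partner of the CBP and p300 coactivators, and Nmbr the receptor of the peptide neuromedin B. Next in distance were a peak between Ttll7 and Adgrl2 (chr3:147824556-147824787), 841 kb from Ttll7 with a fold of 6.42, and a peak between Cdh18 and Basp1 (chr15:24303222-24303448), 826 kb from Cdh18 with a fold of 6.73. Adgrl2 is a latrophilin, an adhesion receptor of synapses, Cdh18 a cadherin of the nervous system, and Basp1 a protein of growing nerve terminals. After these came a further peak of the Nmbr to Cited2 gap, 711 kb from Cited2, with a fold of 8.06 (5.53 to 11.4).

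The density also differed by the length of the gap. Of 1670 gaps over 200 kb between neighbouring protein-coding genes, 131 (7.84%) held a desert peak of any background. The share was 5.33% (Wilson 95% interval 4.09 to 6.92) of gaps of 200 to 500 kb, 10.7% (8.07 to 14.1) of those of 500 kb to 1 Mb, and 12.4% (9.03 to 16.7) of longer ones. Longer gaps have more room: counted per Mb of desert sequence, low-background peaks went from 0.851 in gaps of 200 to 500 kb to 0.382 and then 0.139 in the longest. Only gaps over 1 Mb hold sequence more than 500 kb from both genes. Gap length was not separated from the distance to genes described above. Chromosomes differed too, with 0.627 per Mb on chromosome 13 and 0.604 on chromosome 15, 0.0693 on chromosome 18, 0.018 on chromosome X, and no desert peak on chromosomes 19 and Y. Chromosome 15 stood apart in its background, at a median of 10.8 fragments over its 19 low-background desert peaks against 4.76 over those elsewhere, and its part in the density was not tested.

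Desert peaks gathered in few gaps. The 269 peaks lay in 135 gaps, chromosome ends included. Of these gaps 84 held 1 peak, 23 held 2 and 28 held 3 or more, and these 28 together held 139 peaks. For low-background peaks alone, 24 gaps held 3 or more, 107 peaks in all, and 9 held 5 or more. Crowding at short range was less common than nearer to genes: 63 of 233 desert peaks (27.0%, Wilson 95% interval 21.7 to 33.1) had another low-background peak within 12.5 kb, against 37.3% at 20 to 100 kb and 43.4% at 2 to 20 kb, classes in which peaks are also denser.

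**Figure D3:**
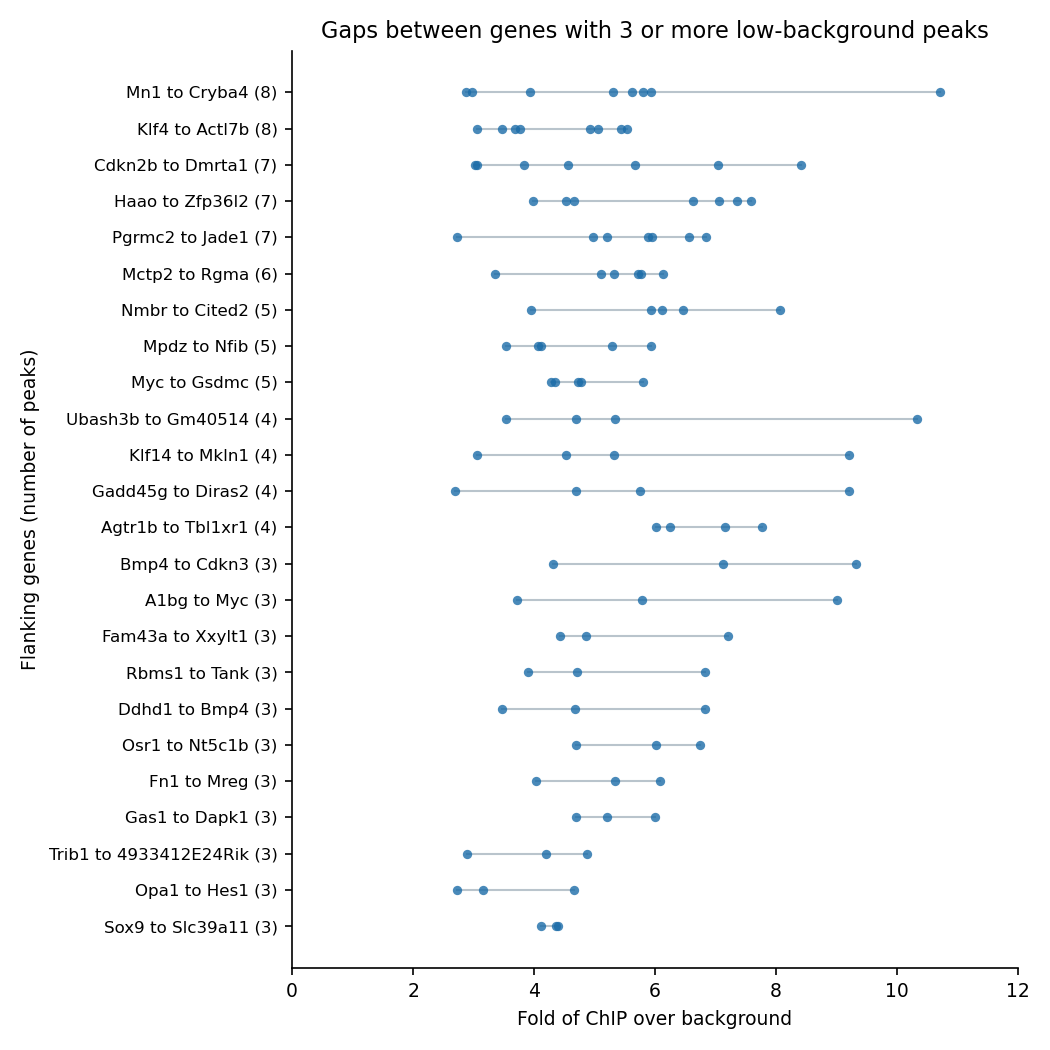
Fold of ChIP over background (linear axis) of every low-background desert peak in the 24 gaps that held 3 or more, 1 row per gap named by its flanking genes, with the number of peaks in brackets and a grey line from the lowest to the highest. The Mn1 to Cryba4 row reaches furthest, to 10.7, and the 4 peaks of the Agtr1b to Tbl1xr1 row all lie at or above 6.01.

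Mn1, a transcriptional coregulator, and Cryba4, a crystallin of the lens, bordered 789 kb of chromosome 5 with 8 peaks, the highest number of low-background peaks in 1 gap. In order from Mn1 their folds were 5.30, 2.98, 5.61, 2.87, 5.94, 3.93, 5.80 and 10.7. The last 4 lay together, 415 to 434 kb from Mn1. The strongest, at chr5:111890854-111891624, rested on 107 ChIP fragments (fold interval 8.80 to 12.9), was 771 bp wide, the widest low-background desert peak, and lay 355 kb from Cryba4. Its interval does not overlap that of any other peak in the gap. These intervals leave out the error of the background, and the difference was not tested.

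Klf4, a Kruppel-like transcription factor of stem cells and epithelia, and Actl7b, a testis actin-like protein, bordered a gap of 1.21 Mb on chromosome 4, which likewise held 8 peaks. The first 6 lay 119 to 203 kb from the 5′ end of Klf4, with folds of 3.47, 5.43, 3.77, 3.69, 3.05 and 5.54, and 4 of those sat within 198 to 203 kb. The other 2 lay 862 and 1001 kb from Klf4 with folds of 4.92 and 5.05. None of the 8 reached a fold of 6, so this gap is marked by the number of its peaks and not by their height.

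Cdkn2b, which encodes the cell cycle inhibitor p15, faced Dmrta1, a DMRT-family factor, across 377 kb of chromosome 4 with 7 peaks. The folds, moving away from the 5′ end of Cdkn2b, were 8.42, 7.05, 4.56, 3.03, 3.84, 5.67 and 3.05, at 115 to 213 kb. The first 6 lay inside the lncRNA gene Gm12610. The 2 highest were also the 2 nearest to Cdkn2b, at 115 and 117 kb.

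Haao, an enzyme of tryptophan breakdown, and Zfp36l2, which promotes decay of messenger RNA with AU-rich elements, bordered 335 kb of chromosome 17 with 7 peaks. Their folds were 7.06, 3.98, 7.35, 7.58, 4.53, 4.67 and 6.63, and 4 of the 7 reached a fold of 6. The highest is at the Gm35551 start whose sequence is shown above, 139 kb from Zfp36l2. The last 4, this peak included, all lay in that lncRNA gene, 102 to 139 kb from Zfp36l2. That start is thus internal to the gene. The peak of 7.35 rested on 89 fragments.

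Pgrmc2, a haem-binding membrane protein, and Jade1, a subunit of the HBO1 histone acetyltransferase complex, bordered 473 kb of chromosome 3 with 7 peaks. They fell in 2 groups: 4 peaks at 112 to 138 kb from Pgrmc2 with folds of 4.97, 6.57, 5.88 and 5.95, and 3 peaks at 202 to 212 kb with folds of 6.84, 5.21 and 2.72. No lncRNA or other non-coding gene lay within 20 kb of any of them.

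**Figure D4:**
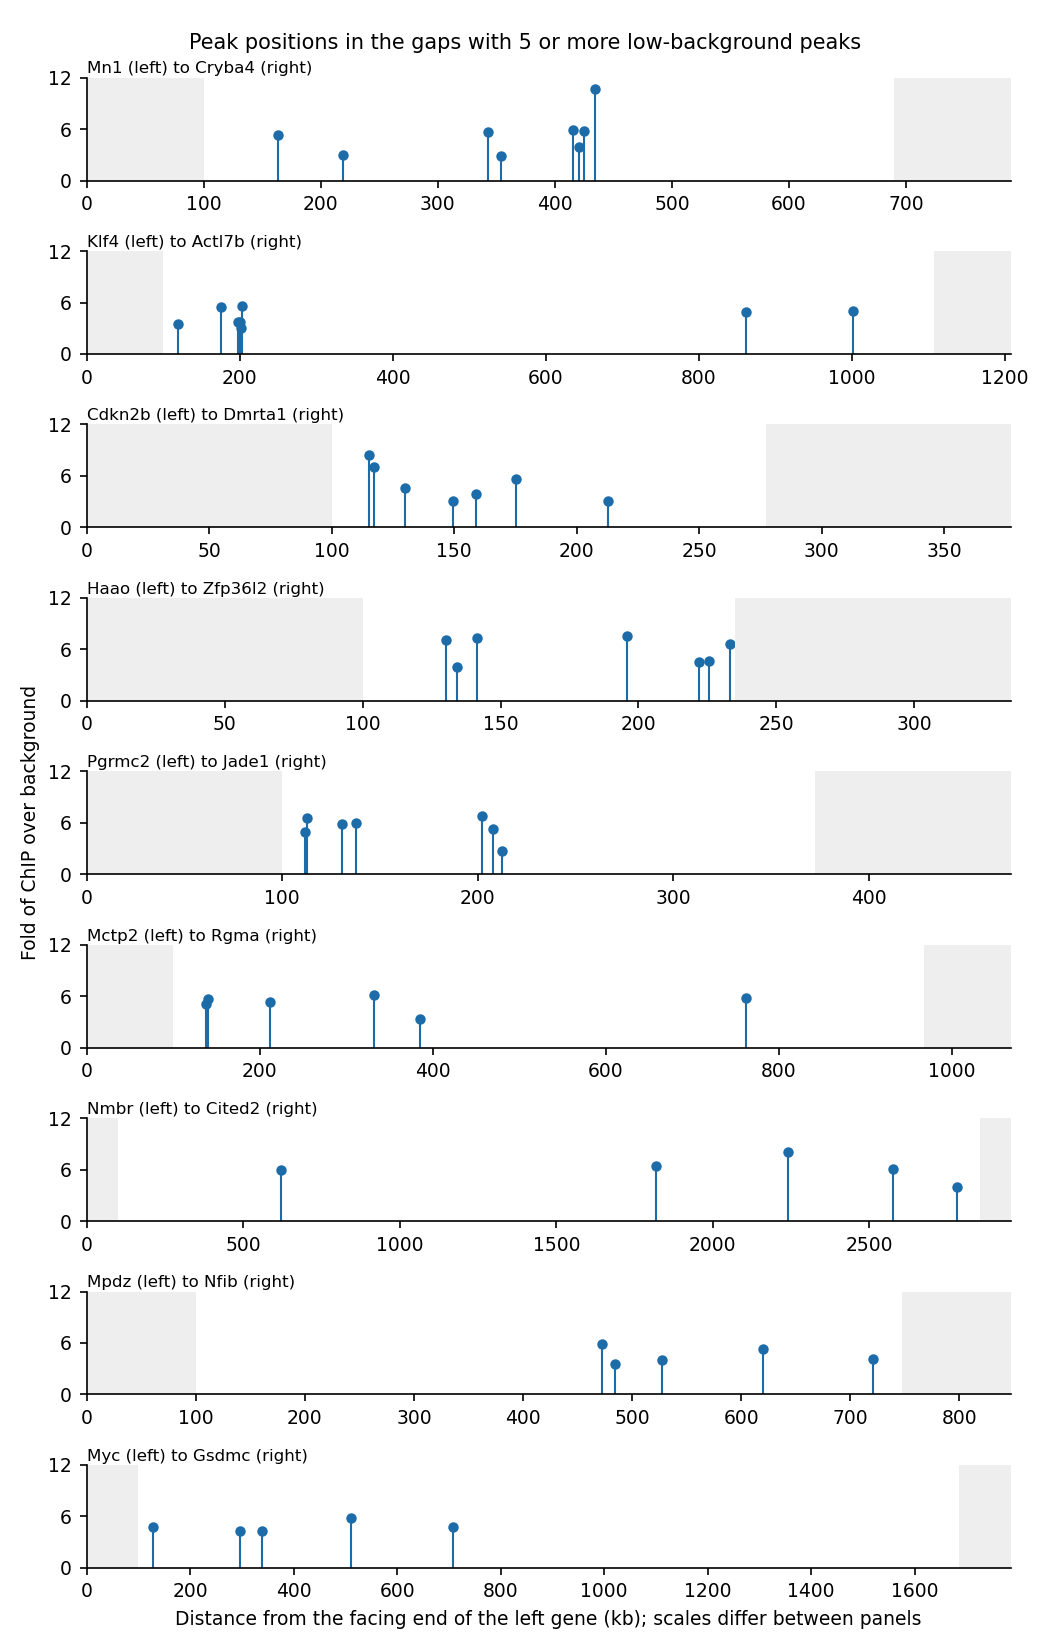
Positions of low-background desert peaks in the 9 gaps that held 5 or more, with the distance from the facing end of the left gene in kb (linear, scales differ between panels) against fold (linear, 0 to 12), and grey bands marking the 100 kb next to either gene. The 6 peaks nearest to Klf4 lie at 119 to 203 kb in a gap of 1.21 Mb, whereas the 5 peaks between Nmbr and Cited2 are spread over 2.16 Mb.

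Mctp2 and Rgma, the second a repulsive axon guidance cue, bordered 1.07 Mb of chromosome 7 with 6 peaks. The folds were 5.11, 5.71, 5.33, 6.14, 3.35 and 5.77, spread over 625 kb. Backgrounds there were low, 2.19 to 4.21 fragments, so that the fold of 3.35 rested on 10 ChIP fragments (interval 1.77 to 5.91).

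The gap of 2.95 Mb between Nmbr and Cited2 on chromosome 10 held 5 peaks, with folds of 5.93, 6.46, 8.06, 6.12 and 3.95. The one nearest to Cited2 was the lowest, 173 kb away. Mpdz, a scaffold of tight junctions, and Nfib, a nuclear factor I transcription factor of brain and lung development, bordered 847 kb of chromosome 4 with 5 peaks. Their folds were 5.93, 3.53, 4.06, 5.29 and 4.11, the last 126 kb from Nfib.

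The proto-oncogene Myc had desert peaks on both sides, on chromosome 15. On the side of A1bg there were 3, with folds of 9.01 (7.19 to 11.2, at chr15:61532092-61532424), 3.73 and 5.79, at 453, 452 and 377 kb from Myc. On the side of Gsdmc, a gasdermin, there were 5, with folds of 4.73, 4.34, 4.28, 5.80 and 4.78, at 129 to 708 kb from Myc. The first of these lay inside Pvt1, the lncRNA that neighbours Myc. Another, with a fold of 2.57, had a background of 21.2. Backgrounds at the 8 low-background peaks ran from 7.64 to 18.2, above the desert median of 4.92, so the folds here rest on more fragments than most, 41 to 82.

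Bmp4, a bone morphogenetic protein, also had 3 peaks on each side on chromosome 14. Towards Cdkn3, beyond the 5′ end of Bmp4, the folds were 9.32 (6.54 to 12.9, at chr14:46517352-46517647), 7.12 and 4.31, at 127, 244 and 246 kb. Towards Ddhd1 they were 4.68, 6.83 and 3.48, at 533, 239 and 211 kb. The Poisson intervals of the highest on each side, 9.32 and 6.83 (4.51 to 9.95), overlap.

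Further gaps with 3 or 4 peaks bordered Gadd45g, Trib1, Hes1 and Sox9. Gadd45g, a stress-response gene of the Gadd45 family, had 4 peaks on the side of Diras2, with folds of 5.75, 9.21 (6.92 to 12.02), 4.70 and 2.69 at 114, 122, 128 and 232 kb. Trib1, a pseudokinase that scaffolds protein turnover, had 3 towards 4933412E24Rik, of 4.87, 4.20 and 2.88, and 1 more of 4.83 with a background of 20.8. Hes1, a repressor downstream of Notch, had 3 on the side of Opa1, of 4.67, 2.73 and 3.16. Sox9, a transcription factor of cartilage, gonad and glia, had 3 towards Slc39a11, of 4.11, 4.40 and 4.36, and 2 of these lay inside the lncRNA gene 2610035D17Rik. On its other side, towards Gm11677, 1 peak with a fold of 2.87 lay 609 kb from Sox9, in the lncRNA gene Gm39461. None of the 4 Sox9 peaks reached a fold of 6.

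The receptor gene Agtr1b and Tbl1xr1, a subunit of the NCoR corepressor complex, bordered 4 peaks with folds of 7.77, 7.16, 6.24 and 6.01, at 314, 140, 114 and 113 kb from Tbl1xr1. The other gaps with 3 were Fam43a to Xxylt1 (4.43, 4.86 and 7.20), Rbms1 to Tank (6.83, 4.71 and 3.90), Osr1 to Nt5c1b (4.70, 6.01 and 6.75), and Gas1 to Dapk1 (4.70, 5.21 and 6.01). Osr1 is a transcription factor of kidney and heart development and Gas1 a co-receptor of Hedgehog ligands. Fn1, which encodes fibronectin, had 3 peaks towards Mreg with folds of 6.09, 4.04 and 5.34, the first at the Gm8883 start shown above, 235 kb from Fn1.

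The microRNA regions named above were 2 more gaps with 4 peaks each. Between Klf14 and Mkln1 the folds were 5.32, 9.21, 4.54 and 3.06, at 103 to 142 kb from Klf14. The first is the one near the miR-29a hairpin, and the last lay in Lncpint, an lncRNA induced by p53. Between Ubash3b and Gm40514 all 4 lay inside Mir100hg, with folds of 3.54, 5.33, 10.3 and 4.69. Backgrounds in Mir100hg ran from 2.19 to 5.19 fragments, and the fold of 10.3 rested on 32 ChIP fragments (interval 7.17 to 14.5). Its background was the shared minimum of 2.19, as it was for the peaks beside Nr2f1 and in Tcra described below.

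Several of the highest folds lay in gaps with only 1 or 2 peaks. The top desert peak, at chr9:116383401-116383855, had a fold of 10.9 (8.03 to 14.4) and lay 208 kb from Tgfbr2, a TGF-beta receptor, and 189 kb from Rbms3, an RNA-binding protein. Its equal at chr2:12699378-12699765 (10.9; 7.76 to 14.8) lay 280 kb from Mindy3, a deubiquitinase, and 224 kb from Pter. A peak at chr16:26211379-26211809 with a fold of 10.2 (7.32 to 13.96) lay 106 kb from P3h2, a collagen prolyl hydroxylase, and 145 kb from Cldn1, a claudin of tight junctions. The intervals of these overlap each other and those of the other 12 among the 15 highest, so their order is not resolved by the counts.

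Nr2f1, an orphan nuclear receptor that patterns the cortex, was 611 kb from a peak at chr13:78809665-78810020 with a fold of 10.02 (6.91 to 14.1), with Arrdc3 2.07 Mb away on the other side. A peak between Ctnna3, an alpha-catenin, and Reep3 had a fold of 9.87 at 1.35 Mb and 655 kb, inside the lncRNA gene Gm40677. Klf7, a Kruppel-like factor of neurons, was 104 kb from a peak of 9.78 inside the lncRNA gene Gm35880, and Creb1, which encodes the cAMP response element binding protein, lay 306 kb away on the other side. Tenm2, a teneurin adhesion protein, and Mat2b were 3.17 Mb and 277 kb from a peak of 8.54. Twist2, a bHLH factor of mesenchyme, was 108 kb and Asb1 134 kb from a peak of 8.48. The last of the top 15, with a fold of 8.46, lay in the T cell receptor alpha locus Tcra, 128 kb from Dad1 and 1.57 Mb from Gm36448.

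Genes of several regulatory classes bordered the occupied gaps. Of 2778 protein-coding genes at the edge of a gap over 200 kb, 248 (8.93%) faced a gap with a low-background desert peak. The lists hold chosen symbols and families and do not cover their classes in full. Of 111 listed developmental transcription factors at such an edge, 19 did (17.1%, Wilson 95% interval 11.2 to 25.2). The factors Osr1, En1 and Nkx6-1, which are not in that list, also faced occupied gaps. Unlisted factors beside empty gaps were not counted, so these names do not bear on the share. Listed immediate early, AP-1 and KLF factors did in 5 of 18 cases (27.8%; 12.5 to 50.9): Gadd45g, Myc, Klf6, Klf4 and Trib1. The highest of 3 peaks beside Klf6, on the side of Akr1e1, had a fold of 6.89. Klf7 and Klf14, outside the list, also faced occupied gaps, again without a count of unlisted factors beside empty ones. Listed neuronal and neural progenitor markers did in 7 of 23 (30.4%; 15.6 to 50.9). These 7 were Sox2, Nfib, Sox4, Hes1, Sox9, Zeb2 and Id2, all of which also count among the developmental factors. They are transcriptional regulators of progenitors and other tissues rather than genes of mature neurons. The lists were chosen with results of these data known, and members of 1 list can face the same gap, so these shares describe this list of peaks only.

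**Figure D5:**
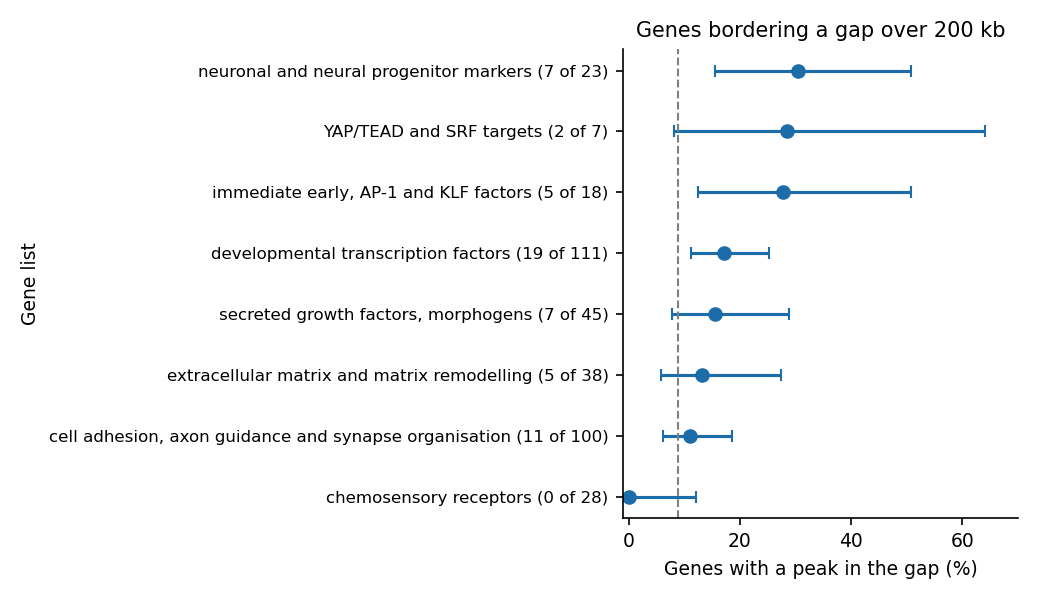
Share of genes (percent, linear axis) whose bordering gap over 200 kb held a low-background desert peak, for 8 gene lists, with Wilson 95% intervals and the counts in brackets. The dashed line is the 8.93% over all 2778 bordering genes, with gap length not matched. The intervals of 3 lists lie wholly to its right, and the other 5 include it.

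Among the developmental factors, the highest folds were the one beside Nr2f1 (10.02), the one beside Twist2 (8.48), 8.30 at 151 kb from Foxa2 on the side of Sstr4, and 8.005 at 316 kb from Sox2 on the side of Dnajc19 (chr3:34333648-34333928). Foxa2 is a pioneer factor of endoderm and floor plate, and Sox2 a factor of neural stem cells. Next was Zfhx3, a large zinc finger homeobox factor, with 7.55 at 194 kb on the side of Pmfbp1. Sox5 had 6.79 on the side of Etnk1, Sox4 5.48 on that of Prl5a1 and Tbx3 5.33 on that of Med13l. Some of these peaks lay nearer to the other gene. The Sox2 peak was 252 kb from Dnajc19. The Sox4 peak was 266 kb from Prl5a1 and 531 kb from Sox4, and the Tbx3 peak 388 kb from Med13l and 517 kb from Tbx3. Foxp1 had 5.29 towards Gm765, Foxd1 5.26 towards Tmem174, and Runx1 5.21 towards Setd4, the last at 104 kb from the gene and just inside the distance limit. The lowest in the list were Id2 with 3.97, towards Rnf144a, and Pax3 with 3.93, towards the ephrin receptor gene Epha4.

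The intervals of the other 5 lists include the 8.93%. Peaks are given here by the listed gene, which need not be the nearer one. The Fgf10 peak, for example, lay 192 kb from Nnt and 351 kb from Fgf10. Adhesion, axon guidance and synapse genes had a peak in 11 of 100 cases (11%; 6.25 to 18.6), led by Ctnna3 and Tenm2 above, Tenm4 with 6.88 towards Gm15501, and Cdh18 and Ncam1 with 6.73 each, the second towards Plet1. Secreted growth factors and morphogens had 7 of 45 (15.6%; 7.75 to 28.8): after Bmp4 came Fstl4 with 4.998 towards 9530068E07Rik, the angiogenic factor Vegfa with 4.80 towards 1600014C23Rik, Fgf10 with 4.73 towards Nnt, and the matricellular protein gene Ccn2 with 3.39 towards Moxd1. Matrix genes had 5 of 38 (13.2%; 5.75 to 27.3), with Has2, a hyaluronan synthase, at 7.51 towards Slc22a22 and Fn1 at 6.09. The matrix proteases were Adamts9 at 5.16 towards Magi1, Mmp16 at 4.45 towards Ripk2 and Adamts5 at 2.87 towards N6amt1. YAP/TEAD and SRF targets had 2 of 7 (28.6%; 8.22 to 64.1), Asap1 with 3.54 towards Adcy8 and Ccn2 again. No chemosensory receptor gene did (0 of 28, which allows a share of up to 10.7%).

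The strand of the nearest gene was known for 170 of the 233 low-background peaks. The peak faced the 5′ end of that gene in 99 and the 3′ end in 71, which is 58.2% (Wilson 95% interval 50.7 to 65.4) facing a 5′ end. Over the ends of all gaps over 200 kb with a known strand it was 1334 of 2581, 51.7%, a value inside that interval.

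Non-coding genes lay close to a minority of desert peaks, and most of these genes were lncRNAs. Of the 233 low-background peaks, 73 (31.3%, Wilson 95% interval 25.7 to 37.5) had a non-coding gene within 2 kb of the summit, where such positions make up 13.8% of desert bases. The nearest such gene was an lncRNA for 69 of them, a pseudogene for 2, a microRNA (Mir29a) for 1 and the Tcra locus for 1. Inside an lncRNA gene lay 65 summits (27.9%; 22.5 to 34.0), where lncRNA genes cover 9.60% of desert bases. Nearer to genes the corresponding share of summits within 2 kb of a non-coding gene was 41.2% at 20 to 100 kb and 37.6% at 2 to 20 kb. Few summits lay at a start that the start table holds. Within 500 bp of one lay 6 of 233 summits (2.58%), against 6.24% at 20 to 100 kb and 4.50% at 2 to 20 kb. Of these 6, 5 are the ones printed above. The table lacks chromosome 18 and some genes elsewhere, such as Myc and Sox9, so these counts are lower limits in every class. tRNA genes, transcribed by RNA polymerase III, were the nearest non-coding gene within 2 kb for 45 of 622 peaks at 2 to 20 kb, 8 of 561 at 20 to 100 kb, and 0 of 233 in the deserts, which allows a share of up to 1.29%.

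Besides Mir100hg, Gm40677, Gm35880, Tcra and Gm12610, the non-coding genes with the highest folds were beside Cand1, Cited2, Sox2, Frmd6 and Tbl1xr1. The peak between Dyrk2 and Cand1 had a fold of 8.27, inside the lncRNA gene Gm33624, and the one between Tmx1 and Frmd6 7.96, inside Gm40436. The peak of 8.005 beside Sox2 lay in the lncRNA gene Gm38505, in the gap from Dnajc19. The 7.77 peak beside Tbl1xr1 lay in 7530428D23Rik, and the 8.06 peak beside Cited2 in Gm20125.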

How the data were processed

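KMT2D ChIP-seq of wild-type HT22 cells (1 ChIP and 1 input library) was taken from the peak list the authors deposited. Per the submitters' processing notes the build was mm10 and the tools were MACS2, Bowtie2 and Picard. What versions and parameters they had is not given in the sources used here. For every peak the authors' deposited table holds an interval, a summit, a fold (the ratio of ChIP to background), p and q values as −log10 (lowest −log10 q 1.32), and a score, which was left aside.

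Gene positions were those of RefSeq GRCm38.p6: 49595 of 49997 genes were kept as lying on main chromosome sequences, of which 21774 are protein-coding. Of the 3738 peaks, 32 lay on other sequences. ChIP fragments and background were solved from fold and p-value for 3694 peaks within a tolerance of 0.001 in −log10 p. Library totals are not in the peak list, so depth is given as fragments per summit (median 29 in low-background desert peaks), which sets the Poisson intervals. Shares have Wilson intervals, the interval of a median comes from order statistics, and the limit of a share of 0 is 3 counts. Densities use the bases between the first and the last protein-coding gene of each chromosome. Strand and start sites came from RefSeq promoter windows, whose start matched the gene edge for 73.4% of genes. Chromosome 18 and some genes elsewhere, such as Myc and Sox9, were not in that table.

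The members, the 8 gene lists and the limits were chosen with earlier results of these data known. Genes named are both flanks of the 15 highest folds, of every gap with 3 or more peaks, of the 5 farthest, 5 widest and 5 in the highest background, up to 5 per list, and non-coding genes of up to 10 peaks. Sox5, Tbx3, Foxp1, Foxd1, Runx1, Id2, Zeb2, Pax3, En1 and Nkx6-1, and the genes beside single high-background peaks, were added after their values were seen, as were the 5 start windows, the microRNAs and their flanks, and the flanks of peaks in non-coding genes. Alternatives changed the distance limit, the peak threshold, the genes used, the window and the chromosomes. The planned motif search at summits was not run because no genome was used here. Procedures were tested on simulated data. Python 3.11.15, numpy 2.4.6, pandas 2.3.3, scipy 1.17.1 and matplotlib 3.10.9 were used.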

Additional observations from a re-analysis of the deposited data

How the results depend on the processing

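Counts, folds and shares in this paragraph are those of peaks of any background unless stated, and the density is that of low-background peaks. Among peaks of any background, the distance limit set the counts but hardly the share of high folds. For low-background peaks alone that share was not computed at 50 or 200 kb. With a limit of 50 kb there were 486 peaks, 128 with a fold of at least 6 (26.3%), and 46 gaps with 3 or more. With 200 kb there were 121 peaks, 33 such folds (27.3%) and 12 gaps. When genes of every biotype bounded the deserts, 33 peaks were left, with a median fold of 5.64, 12 folds of at least 6 (36.4%) and 2 gaps. A −log10 q of at least 5 gave a median fold of 5.26. On autosomes alone, an alternative chosen after seeing the data, the density was 0.353 per Mb. The other 35 alternative values stayed within the limits set for them, among them those without chromosome 15 (248 peaks) and without high background (233 peaks, median fold 5.21, 70 folds of at least 6). Without high background the 70 could not change, because no high-background desert peak reached a fold of 6. The median there rose from 4.83 to 5.21, which is the upper edge of its limit (4.53 to 5.21).

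No paired analysis was possible because there was 1 ChIP and 1 input library. No replicate was left out for the same reason. The motif windows of 200 bp and 100 bp were not run. A single summit rests on few fragments (median 29), so the order of folds within a gap is mostly not resolved.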
